A study of Mus musculus with 8 samples.

Results

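The collagen genes were followed as embryonic fibroblasts of the mouse (MEFs) were reprogrammed to induced pluripotency (iPSCs). They were taken as every row of the gene table whose symbol is Col, a type number, a and a chain number, which gave 42 genes of 17922 rows. Collagens are extracellular proteins whose chains carry runs of glycine-led triplets and wind around each other into a triple helix. Fibrillar collagens form the tensile fibres of connective tissue. Network collagens form the sheets of basement membranes (type IV) or hexagonal networks (types VIII and X). FACIT collagens (fibril-associated collagens with interrupted triple helices) decorate fibrils, and microfibrillar type VI collagen forms beaded filaments around cells. Transmembrane collagens are anchored in the plasma membrane, and the multiplexins are basement-membrane collagens that carry sugar chains. Fibroblasts are a main source of the fibrillar and type VI collagens, and cells of early mouse embryos are known for type IV.

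Long RNA libraries came from 4 stages of C57BL/6 cells, with 1 library each: MEFs of 13.5-day fetuses before induction (day 0), cultures at day 3 and day 6 of induction, and fully reprogrammed iPSCs. The MEFs came from tetO-OSKM mice, in which doxycycline, given at 2 µg/ml, switches on Pou5f1, Sox2, Klf4 and Myc. The induced cultures were kept in knockout serum replacement with LIF, a cytokine that sustains pluripotency, and 3 µM CHIR99021, an inhibitor of the kinase GSK3. The medium of the uninduced MEFs was not given in the sources used here, nor were the medium and feeder cells of the iPSCs, the number of iPSC clones or the pooling of cultures. All stages share the tetO-OSKM allele.

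Levels are FPKM, fragments scaled to gene length and library size. The rule for a call was a difference in log2(FPKM + 1) of 1 or more, which is 2-fold in FPKM + 1. The gene also had to reach 1 FPKM in either library of the pair. With 1 library per stage there is no replicate error and no test. The FPKM columns summed to between 438130 and 486609, and the smallest values put the relative depth of day 3, day 6 and iPSCs at 0.644, 1.06 and 1.05 of MEFs, so low values were least precise at day 3. The labels were checked on fixed markers. Of 9 fibroblast markers 4 were at or above 1 FPKM in iPSCs and 9 in MEFs, and of 8 pluripotency markers 8 in iPSCs and 0 in MEFs. Some markers of other cell types reached 1 FPKM in MEFs too, as did 11588 of all 17922 rows. At or above 1 FPKM were 9 of the 11 matched chondrocyte markers, 5 of 6 of smooth muscle and pericytes, 3 of 5 of macrophages, 2 of 6 of extraembryonic endoderm, 1 of 6 each of osteoblasts and of endothelium, and 0 of 7 of epithelium.

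Collagen RNA was abundant in MEFs and through day 6 and scarce in iPSCs. The 42 genes had summed FPKM of 7594 (MEFs), 8066 (day 3), 7515 (day 6) and 314 (iPSCs), which is 1.56%, 1.73%, 1.67% and 0.0718% of the FPKM of each library. The first 3 libraries lay close together and the iPSC library was 24.1-fold below MEFs. In a bulk library, fewer cells that express a collagen and less of its RNA per cell cannot be told apart. The makeup also differed. Fibrillar collagens held 11.0% of the collagen sum in iPSCs and 81.2% in MEFs, network collagens 69.5% and 9.93%, and multiplexins 14.8% and 0.440%. Of the iPSC sum, 82.1% was that of its 3 highest genes, Col4a1, Col4a2 and Col18a1, which made up 4.21% of the sum in MEFs. All 3 are basement-membrane genes, as is Col4a5, which lies outside the group. They were picked with the values known, so this share and the fold for the other members follow in part from the choice. The sum of these 3 genes was 258 FPKM in iPSCs and 319 in MEFs. The other 39 members summed to 56.2 FPKM in iPSCs and 7275 in MEFs, 129-fold lower in iPSCs.

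**Figure D1:**
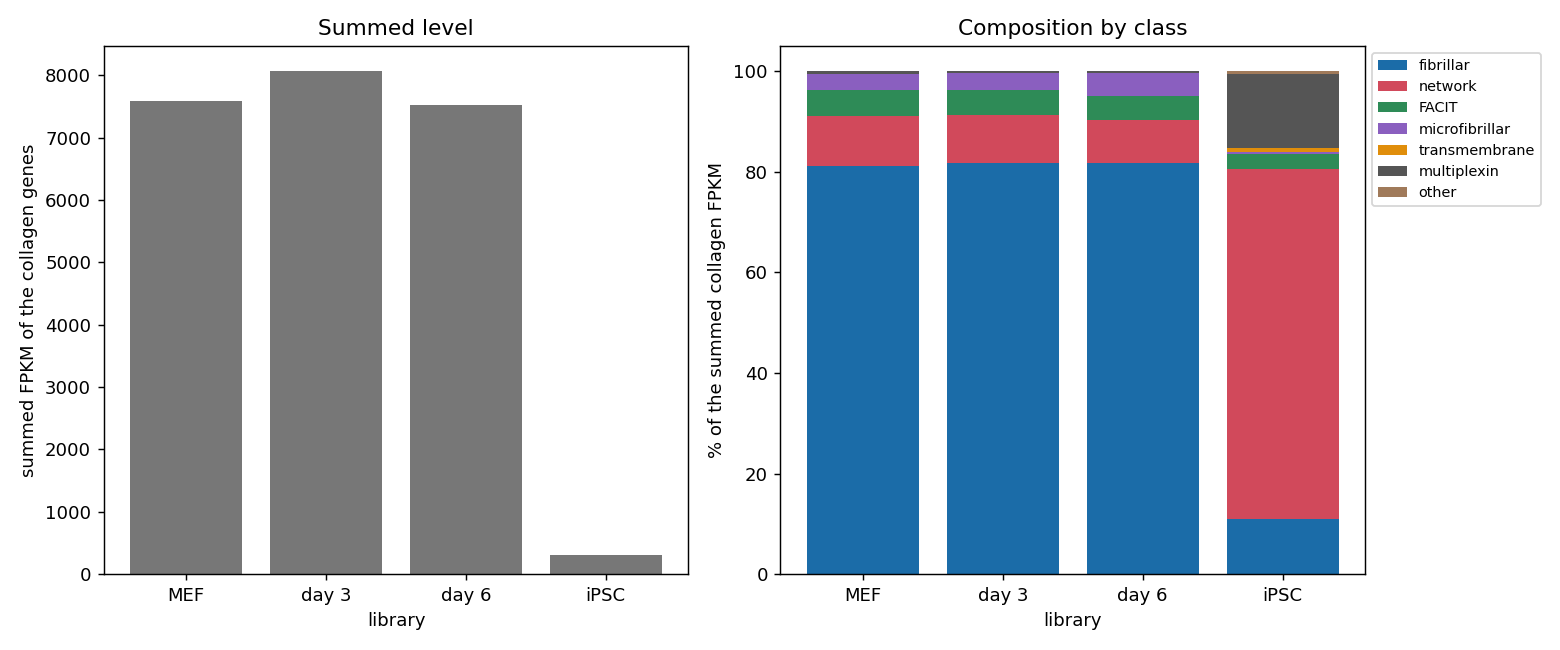
Summed FPKM of the 42 collagen genes in each library (left, bars from 0) and the share of that sum held by each class in % (right). The iPSC bar stands at 314 FPKM against 7594 in MEFs, and network collagens take 69.5% of it.

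Of the 42 genes 33 reached 1 FPKM in at least 1 library, 20 did so in iPSCs and 29 in MEFs. Over all 17922 rows 11736 did so in iPSCs and 11588 in MEFs. The remaining 9 stayed below 1 FPKM throughout. They were Col24a1, Col4a3, Col4a4, Col20a1, Col6a4, Col6a6, Col23a1, Col25a1 and Col28a1. Col26a1 is listed in the table under its older symbol Emid2, which the rule does not match, at 0.594, 0.0812, 0.142 and 1.56 FPKM across MEFs, day 3, day 6 and iPSCs.

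Of 32 collagen genes with at least 1 FPKM in iPSCs or MEFs, 24 were lower and 2 higher in iPSCs, where 25.0% of all rows compared were lower and 21.1% higher. Their median log2(FPKM + 1) difference was -4.00, against -0.05 over all 12937 rows compared. Between iPSCs and day 6, 21 of 32 were lower and 3 higher in iPSCs (23.4% and 20.4% of all rows), with a median of -3.55. Of the 29 genes at or above 1 FPKM in MEFs, 12 were over 100-fold lower in iPSCs and 2 more were listed at 0 there. Over all rows at that level 2.39% were over 100-fold lower or listed at 0. A further 7 were 10- to 100-fold lower, 5 were 2- to 10-fold lower, 2 were lower by under 2-fold and 1, Col18a1, was higher. Rescaling the libraries to one upper quartile moved the median over all rows to 0.12 and brought Col4a2 and Col27a1 inside the rule.

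**Figure D2:**
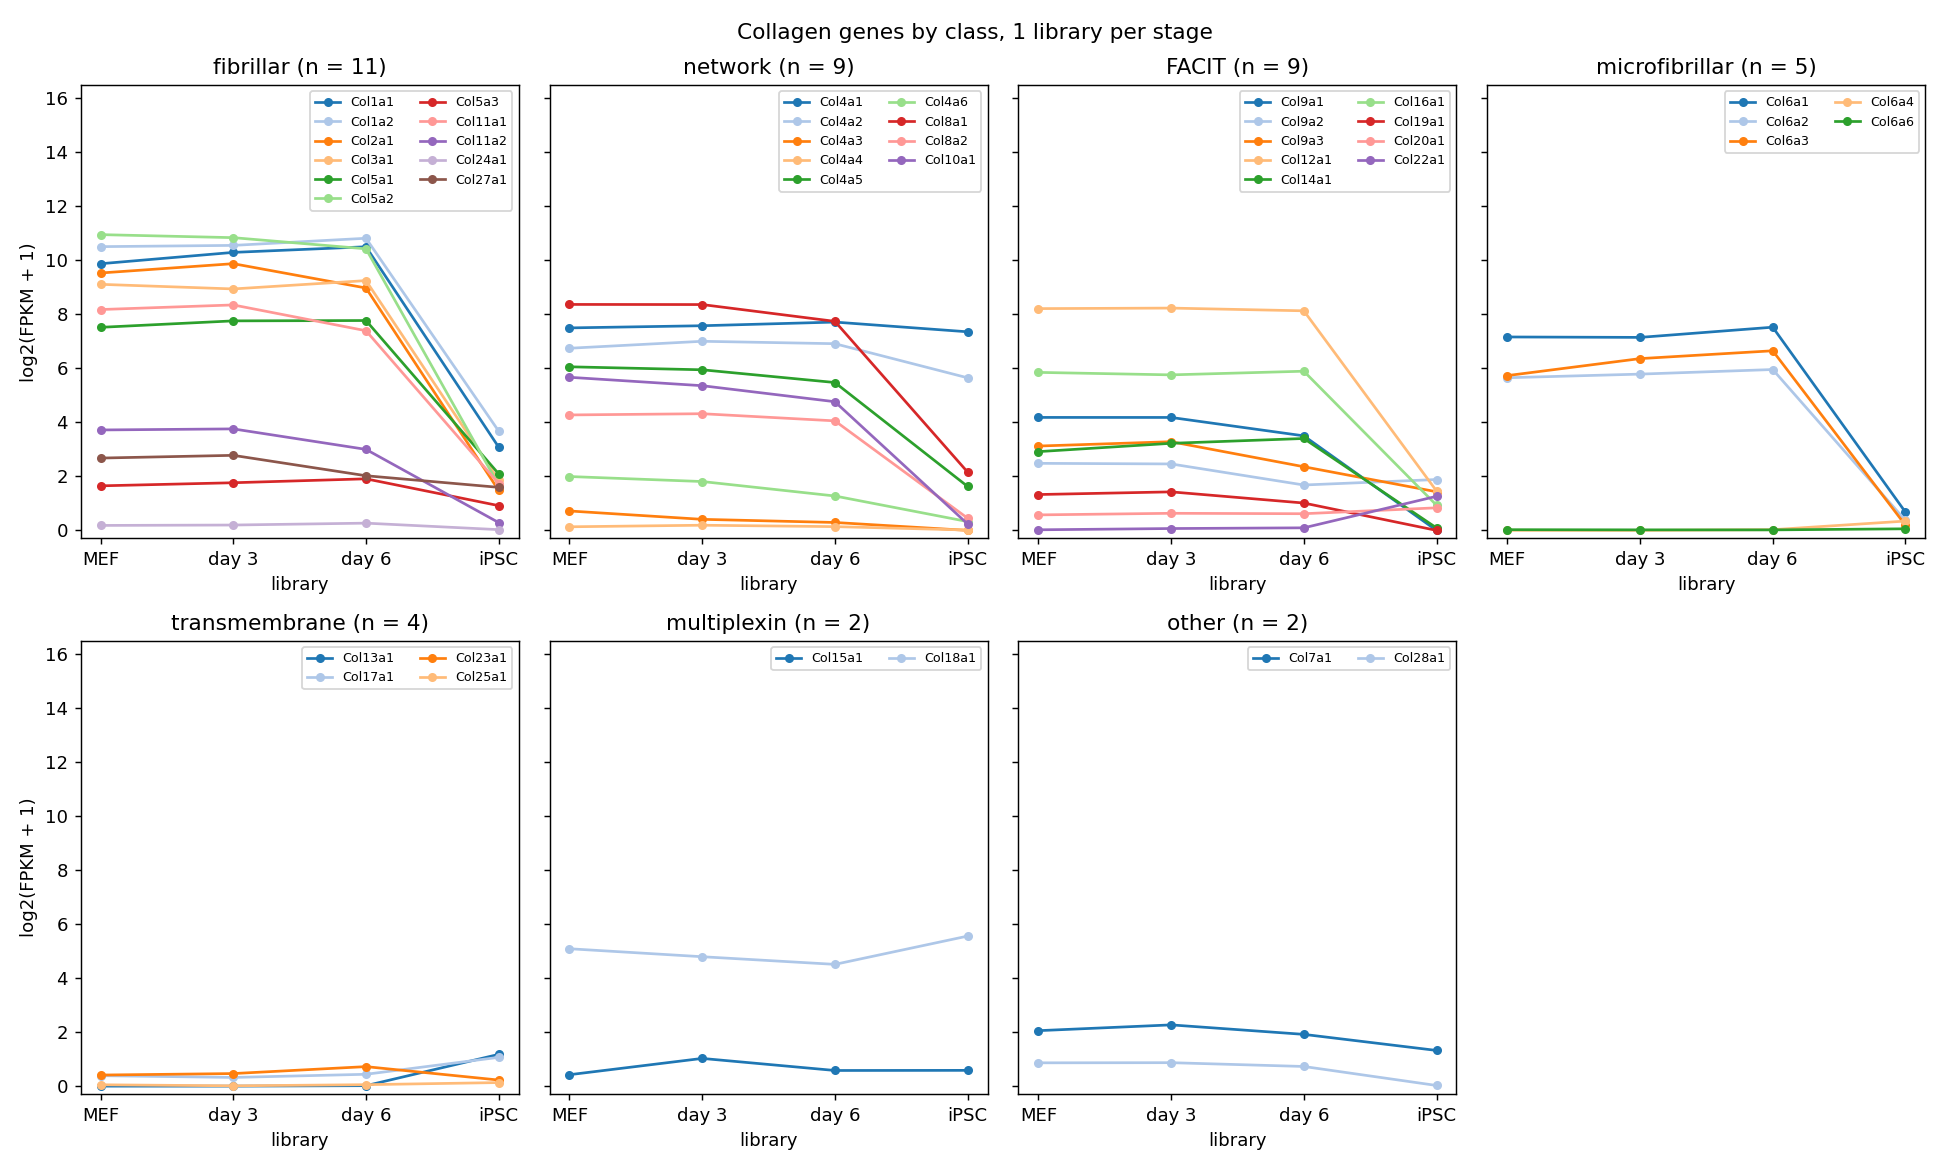
Each collagen gene on the scale log2(FPKM + 1) across MEFs, day 3, day 6 and iPSCs, 1 panel per class and 1 library per point. Most lines stay level through day 6 and end near 0 in iPSCs, and those of Col4a1, Col4a2 and Col18a1 do not.

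**Figure D3:**
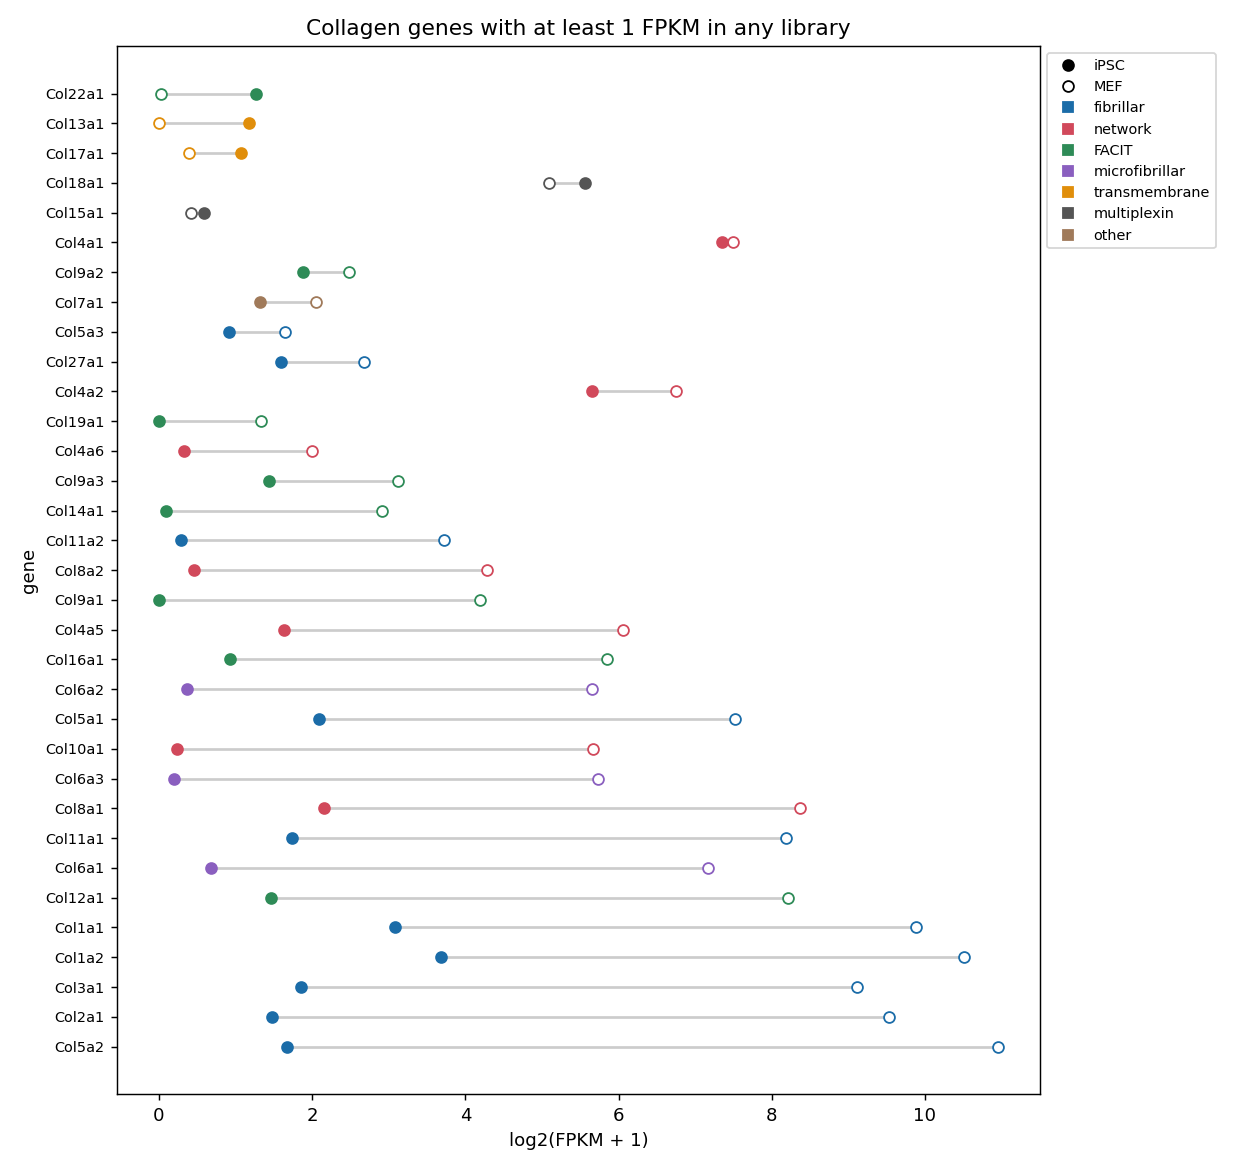
The 33 members that reached 1 FPKM, with log2(FPKM + 1) in iPSCs (filled) and MEFs (open), coloured by class and ordered by the difference. Fibrillar genes make up the bottom 5 rows, with Col5a2 lowest at a difference of -9.28.

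Among the 11 fibrillar members 10 were compared between iPSCs and MEFs, and 9 were lower in iPSCs (25.0% of all rows were). The main fibre chains were Col1a1 and Col1a2, which together form type I collagen of bone, skin and tendon. Col1a1 was at 939, 1257, 1453 and 7.47 FPKM across MEFs, day 3, day 6 and iPSCs. Col1a2 was at 1457, 1505, 1807 and 11.8 FPKM across the same libraries. Both had their highest value at day 6, both stood over 100-fold lower in iPSCs than in MEFs (126-fold and 124-fold), and they were the highest fibrillar genes of the iPSC library. Col3a1, the chain of type III collagen found with type I in skin and vessels, was at 553, 491, 609 and 2.62 FPKM, 211-fold lower in iPSCs than in MEFs.

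The promoters of Col1a2 and Col3a1 are shown because the FPKM of both genes was high through day 6 and over 100-fold lower in iPSCs. The sequences are the 150 bases before the RefSeq start on GRCm38.p6, 5′ to 3′, with CCAAT and TATAAA boxes and GGGCGG (Sp1-type) motifs of either strand in capitals. Col1a2 lies on the plus strand (chr6:4505468-4505617) and Col3a1 on the plus strand (chr1:45311388-45311537).
Col1a2: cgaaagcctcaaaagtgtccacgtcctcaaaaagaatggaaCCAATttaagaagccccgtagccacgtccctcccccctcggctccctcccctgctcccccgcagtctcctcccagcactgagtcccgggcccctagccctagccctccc
Col3a1: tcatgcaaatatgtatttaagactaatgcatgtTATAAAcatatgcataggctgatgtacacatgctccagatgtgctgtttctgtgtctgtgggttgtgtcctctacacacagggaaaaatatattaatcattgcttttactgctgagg
The Col1a2 stretch held 1 CCAAT and no TATAAA, and the Col3a1 stretch held 1 TATAAA and no CCAAT. The Col3a1 match lies toward the 5′ end of the stretch, away from the start. These are matches of letters, and their use as promoter elements was not tested. No match says only that these letters are not in the window.

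Col5a2 had the highest FPKM of the family in MEFs and at day 3. It encodes the alpha-2 chain of type V collagen, which nucleates type I fibrils. Its values were 1985, 1836, 1378 and 2.19 FPKM, rank 10345 of all rows in iPSCs and rank 17 in MEFs. The difference of 904-fold between iPSCs and MEFs was the widest among members above 0 in both libraries and at or above 1 FPKM in MEFs. Its partner chain Col5a1 was far lower than Col5a2 through day 6 and above it in iPSCs, at 183, 216, 218 and 3.27 FPKM, and the minor chain Col5a3 was at 2.14, 2.40, 2.76 and 0.888 FPKM. Col5a3 was the 1 fibrillar member compared that was within the rule in iPSCs. Col3a1 and Col5a2 are nearest coding neighbours in the RefSeq annotation, and they differed in their course to day 6.

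The cartilage fibrillar genes were also high in MEFs. Col2a1, the main collagen of cartilage, was at 740, 941, 503 and 1.79 FPKM. Its co-polymer chains Col11a1 and Col11a2 (type XI) were at 289, 326, 167 and 2.32 FPKM and at 12.2, 12.5, 7.003 and 0.222 FPKM. All 3 were highest at day 3, lower at day 6 and at or below 2.32 FPKM in iPSCs. Col27a1, also known from cartilage, was at 5.40, 5.87, 3.07 and 2.02 FPKM. Col24a1 never exceeded 0.204 FPKM.

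The network collagens split. Col4a1 and Col4a2 wind together in the type IV network common to basement membranes, and their RNA was still abundant in iPSCs. Col4a1 was at 180, 190, 209 and 163 FPKM across MEFs, day 3, day 6 and iPSCs. The ratio of iPSCs to MEFs was 0.904 and the log2(FPKM + 1) difference -0.14, which was 0.03 after upper quartile rescaling. It was the highest collagen gene of the iPSC library, at rank 364 of all rows there and rank 377 in MEFs. Col4a2 was at 106, 127, 120 and 49.3 FPKM, with a ratio of iPSCs to MEFs of 0.463 and a log2 difference of -1.09 (-0.92 after upper quartile rescaling, inside the rule). Of 12 collagen genes at or above 100 FPKM in MEFs, the other 10 lay between 0.598 and 11.8 FPKM in iPSCs.

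Col4a1 and Col4a2 are transcribed in opposite directions from a common promoter region, and their RefSeq starts overlap by 22 bases (GRCm38.p6, chr8:11312805-11312826, shown on the plus strand, the strand of Col4a2). The stretch is shown because it marks where the 2 highest collagen genes of the iPSC library begin, and capitals mark a GGGCGG motif in it.
Col4a1 and Col4a2: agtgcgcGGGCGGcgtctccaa
The strand setting of the counting was not given in the sources used here, so reads within overlaps of opposite genes cannot be assigned. Of the 42 members 22 overlap another annotated gene.

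Type IV collagen is also a product of extraembryonic endoderm, and most fixed markers of that lineage were higher in the iPSC library. Of 7 listed 6 were matched, and they had summed FPKM of 39.0 (MEFs), 44.3 (day 3), 43.9 (day 6) and 93.0 (iPSCs). By the rule 4 of the 6 were higher in iPSCs and 1 was lower (21.1% and 25.0% of all rows). Lama1, a laminin chain of early basement membranes, was at 64.0 FPKM in iPSCs and 0.241 in MEFs, the transcription factor gene Gata4 at 8.74 and 0.00849, and Sox7 at 1.80 FPKM in iPSCs and listed at 0 in MEFs. Foxa2 was at 2.42 and 0.242 FPKM, Gata6 at 5.37 and 3.38, and Dab2 at 10.7 and 35.1. The part of these markers in the Col4a1 and Col4a2 levels was not tested.

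The other type IV chains did not share this. Col4a5, a chain of kidney and smooth muscle basement membranes, was at 65.7, 60.8, 43.5 and 2.09 FPKM, 31.4-fold lower in iPSCs than in MEFs. Its head-to-head neighbour Col4a6 was at 2.99, 2.51, 1.42 and 0.254 FPKM. Both were already lowest of the early libraries at day 6. Col4a3 and Col4a4, the chains of the glomerular network, did not exceed 0.646 and 0.142 FPKM, and Col4a3 was listed at 0 in iPSCs. Of the hexagonal network formers, Col8a1 (a vessel and corneal collagen) was at 330, 329, 213 and 3.47 FPKM and Col8a2 at 18.4, 19.0, 15.6 and 0.367 FPKM. Both were lower in iPSCs by the rule. Col10a1, the collagen of hypertrophic cartilage, was at 49.96, 40.1, 26.2 and 0.179 FPKM. It overlaps Nt5dc1, so reads of the pair cannot be told apart where they overlap.

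Of the 9 FACIT members 8 were compared between iPSCs and MEFs, with 6 lower and 1 higher in iPSCs (25.0% and 21.1% of all rows). Col12a1, which binds type I fibrils in dense connective tissue, was the highest, at 296, 300, 280 and 1.75 FPKM. Col16a1 was at 56.8, 53.2, 58.6 and 0.907 FPKM, and Col14a1, also a binder of type I fibrils, at 6.55, 8.35, 9.58 and 0.0649 FPKM. Col12a1 was 169-fold, Col16a1 62.6-fold and Col14a1 101-fold lower in iPSCs than in MEFs. The type IX chains, which coat the type II fibrils of cartilage, were at or below 17.2 FPKM in every library. Col9a1 was at 17.2, 17.2 and 10.3 FPKM and listed at 0 in iPSCs. Col9a2 was at 4.59, 4.51, 2.21 and 2.69 FPKM and Col9a3 at 7.72, 8.75, 4.13 and 1.70 FPKM. The 3 chains thus differed in iPSCs, where Col9a2 was within the rule against MEFs. Col9a3 overlaps Tcfl5 in the RefSeq annotation, so reads within the overlap may belong to either gene. Col19a1, the nearest coding neighbour of Col9a1, was at 1.51, 1.69 and 1.02 FPKM and also listed at 0 in iPSCs. Col22a1, known from tissue junctions such as those of muscle and tendon, ran the other way at 0.0153, 0.0488, 0.0679 and 1.399 FPKM. Col20a1 stayed between 0.488 and 0.785 FPKM.

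The microfibrillar class was nearly lost in iPSCs. Its 5 members summed to 1.34 FPKM in iPSCs and 244 in MEFs, 182-fold lower in iPSCs, and the fibrillar sum was 178-fold lower. The chains of the main type VI trimer were Col6a1 at 142, 141, 183 and 0.598 FPKM, Col6a2 at 49.4, 54.3, 61.2 and 0.289 FPKM, and Col6a3 at 52.2, 81.3, 99.6 and 0.143 FPKM. All 3 had their highest value at day 6 and were below 1 FPKM in iPSCs. The alternative chains Col6a4 and Col6a6 did not exceed 0.270 and 0.0414 FPKM.

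The transmembrane collagens were near silent in MEFs, with 2 of 4 at or above 1 FPKM in iPSCs and 0 of 4 in MEFs. Col13a1, which lies at cell junctions and neuromuscular synapses, was listed at 0 in MEFs and at day 3, and was at 0.0122 FPKM at day 6 and 1.26 in iPSCs. Col17a1, the hemidesmosome collagen of the epidermis, was at 0.308, 0.2502, 0.356 and 1.10 FPKM. Of these, Col13a1 was higher in iPSCs by the rule and Col17a1 was within it. Col23a1 had its top value at day 6 (0.651 FPKM), and Col25a1 did not exceed 0.0958 FPKM. Members higher in iPSCs by the rule, Col22a1 and Col13a1, were thus at 1.399 and 1.26 FPKM, far below Col4a1.

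The multiplexin Col18a1, the source of the antiangiogenic fragment endostatin, was the member with at least 1 FPKM in MEFs that stood higher in iPSCs. It was at 33.0, 26.7, 21.8 and 46.1 FPKM across MEFs, day 3, day 6 and iPSCs. Its iPSC level was 2.12 times that of day 6 (log2 difference 1.05, higher by the rule) and 1.396 times that of MEFs, within the rule. RefSeq gives it 2 starts, which the gene-level value does not separate. They are shown because they differ in letters, as the 150 bases before each start on the minus strand of GRCm38.p6 (distal, chr10:77166531-77166680, and proximal, chr10:77113706-77113855), with the motifs named above in capitals.
Col18a1 distal: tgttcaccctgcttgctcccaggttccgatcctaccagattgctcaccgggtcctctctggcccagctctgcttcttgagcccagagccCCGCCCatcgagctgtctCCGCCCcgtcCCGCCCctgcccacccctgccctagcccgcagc
Col18a1 proximal: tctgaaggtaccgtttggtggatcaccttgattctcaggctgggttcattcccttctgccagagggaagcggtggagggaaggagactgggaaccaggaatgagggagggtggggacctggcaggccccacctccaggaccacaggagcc
The distal stretch held 3 GGGCGG motifs (read as CCGCCC on this strand) and the proximal one held none of the 3 motifs. The other multiplexin, Col15a1, was at 0.341, 1.04, 0.495 and 0.500 FPKM, with its top value in the shallower day 3 library. Col7a1, which forms the anchoring fibrils of skin, was at 3.16, 3.82, 2.78 and 1.501 FPKM, and Col28a1 did not exceed 0.826 FPKM.

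During the first 6 days no collagen gene passed the rule, which asks for more than 2-fold in FPKM at low levels. Some low members had FPKM ratios past 2-fold and were within it. Col15a1 was at 3.04 at day 3 relative to MEFs. Col4a6 and Col9a2 were at 0.475 and 0.480 at day 6 relative to MEFs, and Col9a3 at 0.472 relative to day 3. Between day 3 and MEFs 0 of 30 compared were higher and 0 lower (0.17% and 0.0511% of all rows), between day 6 and day 3 again 0 of 30 in each direction (0.457% and 0.398%), and between day 6 and MEFs 0 of 29 (0.77% and 0.584%). The median difference of day 6 against MEFs was -0.22, and -0.02 over all rows. Without the 7 cartilage collagens it was 0.09, and 0.0045 with members under 1 FPKM let in, so its sign rests on the members taken. A 1.5-fold ratio of FPKM, a limit taken after the values were seen, gave more detail. Of the 29 members at or above 1 FPKM in MEFs, 1 was at least 1.5-fold higher and 0 lower at day 3 (1.7% and 1.48% of all rows at that level). At day 6, 2 were at least 1.5-fold higher and 11 lower than in MEFs (2.79% and 5.36%).

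The chains of types I and VI above 1 FPKM, grouped with the values known, lay above MEFs at day 6. Their day 6 to MEF ratios were 1.55 for Col1a1, 1.24 for Col1a2, 1.29 for Col6a1, 1.24 for Col6a2 and 1.91 for Col6a3. This was not particular to them. Of 29 members compared 12 lay above MEFs at day 6 and 17 below (5510 and 6306 of 11816 over all rows). The others above were Col14a1 (1.46), Col5a3 (1.29), Col5a1 (1.19), Col4a1 (1.16), Col4a2 (1.13), Col3a1 (1.10) and Col16a1 (1.03). Col6a3 had the highest such ratio among the 29 genes, with a log2 difference of 0.92 that reached 1.03 when libraries were rescaled to one FPKM sum. Type I chains summed to 3260 FPKM at day 6 and 2397 in MEFs, and held 43.4% of the collagen sum at day 6 and 31.6% in MEFs.

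The cartilage collagens lay below MEFs at day 6. The 7 genes Col2a1, Col9a1, Col9a2, Col9a3, Col10a1, Col11a1 and Col11a2, grouped by their textbook tissue with the values known, had summed FPKM of 1121 (MEFs), 1350 (day 3) and 721 (day 6). At day 6 each was below its day 3 value, at a ratio between 0.472 and 0.654, and below its MEF value, at a ratio between 0.480 and 0.680. At day 3 the ratios to MEFs ran from 0.802 to 1.27, and 3 of the 7 were below MEFs. Fixed chondrocyte markers that are no collagens had summed FPKM of 266 (MEFs), 295 (day 3) and 188 (day 6), over the 11 matched of 12 listed, with 0 of the 11 listed at 0 in MEFs. Most of each sum was Lect1, at 178, 203 and 132 FPKM. Of 9 at or above 1 FPKM at day 6 or in MEFs 7 had a lower value at day 6 than in MEFs. Over all rows at that level 6306 of 11816 did. Of the 7 markers 1, Hapln1, was lower by the rule (0.584% of all rows were). The cartilage regulator Sox9 was at 12.6, 13.3 and 7.85 FPKM across MEFs, day 3 and day 6, the proteoglycan gene Acan at 29.3, 33.7 and 17.8, and the link protein gene Hapln1 at 17.6, 17.8 and 6.84. Matn4 was at 2.04, 2.15 and 2.94 FPKM and Comp at 7.56, 7.15 and 7.75 FPKM, both highest at day 6. The part of chondrocyte content in the collagen values was not tested.

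Of the 7 cartilage collagens grouped above, Col2a1 (0.680) was not 1.5-fold lower at day 6 than in MEFs. Outside that group, members at or above 1 FPKM in MEFs and at least 1.5-fold lower at day 6 are given with their ratio. They were Col27a1 (0.568), itself also known from cartilage, Col4a5 (0.663), Col4a6 (0.475), Col8a1 (0.647) and Col18a1 (0.660). Of 6 smooth muscle and pericyte markers 3 were lower by the rule at day 6 than in MEFs (0.584% of all rows were). They were Acta2 (1010 FPKM at day 6 and 2534 in MEFs), Cnn1 (46.8 and 146) and Myh11 (2.44 and 17.2). Within the rule were Rgs5 (15.3 and 17.4), Des (1.38 and 0.647) and Cspg4 (29.0 and 25.5), the last 2 with a higher value at day 6. The 6 summed to 1105 FPKM at day 6 and 2740 in MEFs, most of it Acta2. The part of these markers in the collagen values was not tested.

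**Figure D4:**
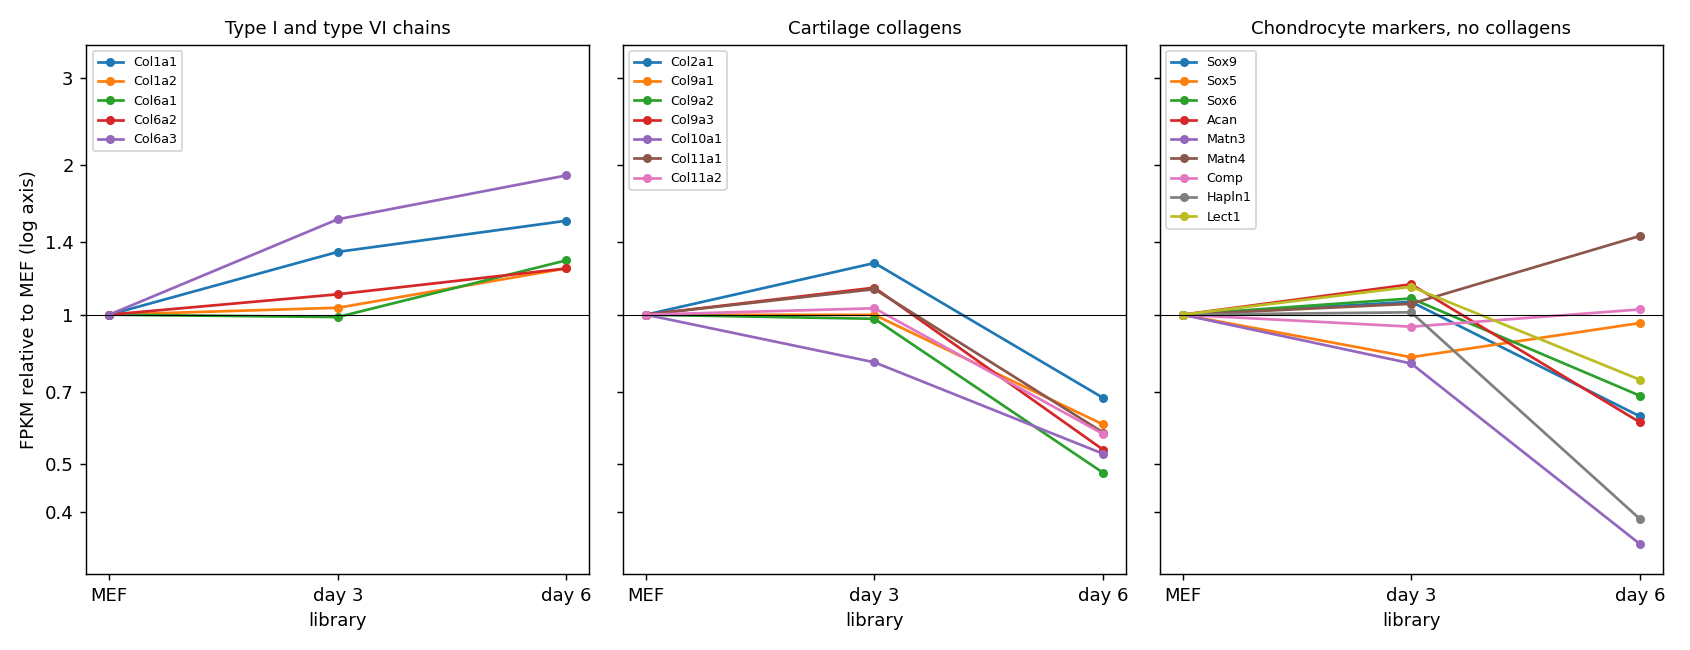
FPKM relative to MEFs (log axis) at MEF, day 3 and day 6 for type I and VI chains, cartilage collagens and chondrocyte markers at or above 1 FPKM in MEFs, 1 library per stage. At day 6 the type I and VI chains lie between 1.24 and 1.91 and the cartilage collagens between 0.480 and 0.680.

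Chains that share a triple helix did not keep 1 FPKM ratio across the stages in every pair. Ratios are of FPKM, which is per length, and were taken only where both chains reached 1 FPKM. Col1a1 to Col1a2 stood at 0.645, 0.835, 0.804 and 0.634 across MEFs, day 3, day 6 and iPSCs, where the type I protein holds more alpha-1 than alpha-2 chain. This ratio was alike in iPSCs and MEFs although both genes were over 100-fold lower in iPSCs. Col4a1 to Col4a2 stood at 1.69, 1.49, 1.75 and 3.31, with the iPSC library apart from the other 3. Col5a1 to Col5a2 stood at 0.0921, 0.118, 0.158 and 1.49, so Col5a2 was in excess until day 6 and Col5a1 slightly so in iPSCs. Among pairs that could be formed only through day 6, Col6a1 to Col6a2 stayed between 2.60 and 3.00, while Col6a3 to Col6a1 was 0.366, 0.577 and 0.543, Col4a5 to Col4a6 was 22.0, 24.2 and 30.7, and Col9a1 to Col9a2 was 3.74, 3.81 and 4.68.

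**Figure D5:**
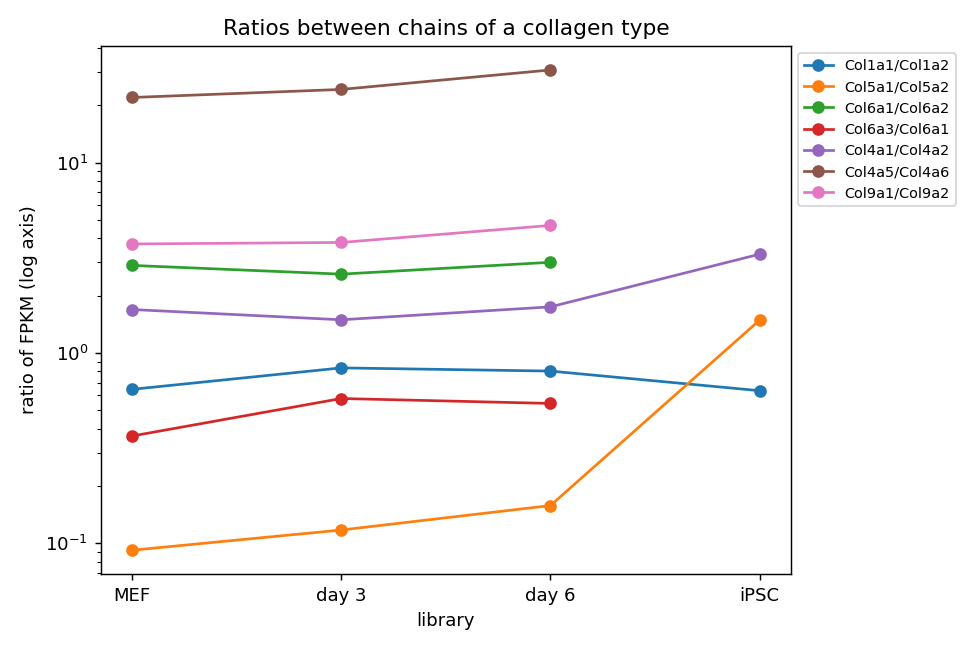
Ratio of FPKM (log axis) between chains of a collagen type in each library, shown where both chains reach 1 FPKM. In iPSCs the Col1a1 to Col1a2 ratio is 0.634, near the MEF value, and the Col4a1 to Col4a2 and Col5a1 to Col5a2 ratios are 3.31 and 1.49, above all earlier libraries.

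The machinery that makes, joins, binds and degrades collagen was mostly lower in iPSCs. Of 21 listed genes of collagen modification and folding 20 were matched, and 12 of 19 compared were lower in iPSCs and 0 higher (25.0% and 21.1% of all rows, here and for the 3 lists that follow). The median difference to MEFs was -1.22. The largest differences were in the prolyl hydroxylase gene P4ha3 (0.130 FPKM in iPSCs and 26.4 in MEFs), Leprel2, a prolyl 3-hydroxylase (2.45 and 55.7), and the endoplasmic reticulum prolyl isomerase genes Fkbp14 (3.42 and 62.7) and Fkbp10 (12.6 and 150). Some others are named after their values were seen. The hydroxylases P4ha1 and P4ha2 were at 103 and 44.4 FPKM in iPSCs and 112 and 45.0 in MEFs, and the collagen chaperone Serpinh1 at 170 and 838.

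Of 12 compared genes of procollagen cleavage and crosslinking 9 were lower in iPSCs and 0 higher (median -2.80). The 4 largest differences were in lysyl oxidases, which crosslink the fibrils: Lox (2.23 FPKM in iPSCs and 1840 in MEFs), Loxl3 (0.920 and 87.6), Loxl4 (1.16 and 94.9) and Loxl1 (1.82 and 121). Of 8 compared collagen receptors 8 were lower, with a median of -3.48. They included the integrin chains Itga11 (0.451 and 143) and Itga1 (0.650 and 36.1), the receptor kinase Ddr2 (0.361 and 49.2) and the uptake receptor Mrc2 (1.70 and 30.3). Of 4 compared proteases 3 were lower, the matrix metalloproteinases Mmp2 (8.82 and 329) and Mmp14 (10.9 and 138) and the cathepsin Ctsk (0.0593 and 8.45), and Mmp9 was higher (1.82 and 0.105). At day 6 against MEFs the procollagen protease Tll1 was lower by the rule (16.7 and 37.0 FPKM), 1 of 12 in its list, and 0 of the other 3 lists (0.584% of all rows were lower).

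The 250 bases before each RefSeq start were searched on both strands for the CCAAT box, the TATAAA box and the GGGCGG motif, which can share letters where they abut. Windows were given for 34 of the 42 members, 37 windows in all. GGGCGG was in 21 of them (56.8%) and in 32.7% of all 32851 windows. CCAAT was in 13 (35.1%, against 33.9%) and TATAAA in 5 (13.5%, against 12.4%). The 20 windows of members with a lower call in iPSCs against MEFs held GGGCGG in 13 (65.0%), CCAAT in 6 (30.0%) and TATAAA in 3 (15.0%). They cover 18 of the 24 genes with that call. Col1a1, Col2a1, Col5a2, Col9a3, Col12a1 and Col14a1 had no window. The median GC content was 59.2% over collagen windows and 52.4% over all. Within the family it ran from 35.2% for Col3a1 to 76.4% for Col5a1. Both genes were lower in iPSCs by the rule. The windows of Col4a1 and Col4a2 were at 74.4% and 73.6%.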

How the data were processed

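The authors deposited 1 FPKM value per gene and stage for 4 long RNA libraries, per the file headers. Libraries were made with a NEBNext Ultra kit after removal of ribosomal RNA, per the labels' protocols. The submitters' processing notes name HISAT2, Cufflinks and the build mm9 without versions or roles. Strand setting, gene models, filters and pooling were not given in the sources used here. The 4 small RNA libraries were not analysed here. FPKM is relative to the other RNAs of a library, and a low or 0 value can be a failed estimate.

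From the table, log2(FPKM + 1) differences were taken with Python 3.11.15, pandas 2.3.3 and NumPy 2.4.6. The calls were first run on simulated data, with changes set well past the rule in well-expressed genes. That run checks the code and says nothing about low values or differences near the rule. No test was possible with 1 library per stage. Every member could be named; of companion lists, at most 4 genes past the rule with the largest differences. P4ha1, P4ha2, Serpinh1, Sox9, Acan, Lect1, Matn4, Comp, Rgs5, Des, Cspg4 and part of the endoderm markers fall outside this and were named after their values were seen. Members, lists and groupings were chosen with earlier results of these data known. All 42 members matched the table of current gene names and RefSeq (GRCm38.p6, another build than mm9) by symbol. Promoter sequences are those of RefSeq. Alternatives were pseudocounts of 0.1 and 5, a log2 limit of 2, a minimum of 5 FPKM or none, and 3 rescalings.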

Additional observations from a re-analysis of the deposited data

How the results depend on the processing

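No call has a replicate check, and depth is known only in relative terms. No paired analysis was possible because each stage had 1 library, and no replicate could be left out for the same reason. Of 135 alternative values 117 stayed near the reported one (counts within 1.5 times, medians within 1.5-fold) and 18 did not. Part of the 117 could not move by construction, so the tally is no measure of robustness. The log2 limit does not enter a median, and counts of 0 cannot rise under stricter settings. Dropping the minimum cannot change a count, because a log2(FPKM + 1) difference of 1 already needs 1 FPKM. Leaving out the 7 cartilage collagens was chosen after seeing the data. The counts of 24 lower in iPSCs than in MEFs and 21 lower than at day 6 stayed within 1.5 times under all alternatives. The few genes higher in iPSCs did not. Against MEFs (2 as reported) a pseudocount of 5, a log2 difference of 2 and a minimum of 5 FPKM each left 0. Against day 6 (3 as reported) the first 2 of these left 0 and the minimum of 5 FPKM left 1. A pseudocount of 0.1 gave 1 higher at day 3 than in MEFs, 2 lower at day 6 than in MEFs and 1 lower at day 6 than at day 3, where 0 were reported, and rescaling to one FPKM sum gave 1 higher at day 6 than in MEFs (Col6a3). Medians for iPSCs against MEFs (-4.00) were -5.32 with a pseudocount of 0.1, -2.14 with 5, -5.36 with a minimum of 5 FPKM and -1.50 with none. Those against day 6 (-3.55) were -5.47, -1.78, -5.59 and -1.003. The median for day 6 against MEFs (-0.22), itself within the rule, changed sign to 0.0045 with no minimum and to 0.09 without the cartilage collagens. By construction a larger pseudocount shrinks differences of low values, and no minimum lets in members near 0.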
